A study of Bos taurus with 12 samples.

Results

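The genes of carnitine synthesis and of the carnitine shuttle were examined in liver of Holstein heifer calves, as 10 genes chosen by their role out of 30336 gene IDs in the count files. The first group makes or takes up carnitine (TMLHE, ALDH9A1, BBOX1 and SLC22A5). The second group carries long-chain acyl groups into mitochondria (CPT1A, CPT1B, SLC25A20 and CPT2). The third group transfers shorter acyl groups to carnitine (CRAT and CROT). Liver was collected at 4 d of age from 6 calves of cows fed a basal close-up diet without added Met (CON) and from 6 calves of cows fed the same diet with ethyl cellulose rumen-protected Met (MET). The cows received the diets for the last 28 d of gestation, and calves of both groups were fed and managed alike after birth. The comparison therefore asks how the late-gestation diet of the dam related to expression in the calf. According to the study, cows fed rumen-protected Met also eat more, so a part of other nutrients cannot be set aside. Polyadenylated RNA was read by stranded sequencing on 1 lane, and the first sequencing index was one sequence in the CON libraries and another in the MET libraries, and therefore the index and the diet cannot be told apart in any value.

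Carnitine is made from trimethyllysine, a lysine released from proteins after its methylation, and the methyl groups come from S-adenosylmethionine, the methyl donor formed from Met. The pathway runs through hydroxylation by TMLHE, an aldol cleavage, oxidation by ALDH9A1 and a last hydroxylation by BBOX1, a step for which liver and kidney are the known sites. Long-chain acyl-CoA cannot cross the inner mitochondrial membrane. CPT1 at the outer membrane moves the acyl group to carnitine, the carrier encoded by SLC25A20 exchanges acylcarnitine for free carnitine, and CPT2 restores acyl-CoA on the inner side, where beta-oxidation starts. After birth this route lets liver burn milk fat and form ketone bodies.

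The libraries held 8277789 to 10397604 counted reads, and all 10 genes passed the filter on low counts that left 13212 genes for testing. The libraries of CON replicates 1 and 4 were nearly identical, as were those of MET replicates 1 and 3. A chi-square statistic per gene, which is near 1 when 2 libraries differ by counting noise alone, was 1.33 and 1.24 for these pairs and 25.1 to 132.9 for the other 64 of 66 pairs of libraries. Each near-identical pair was therefore counted as 1 sample, which left 5 samples per diet, and the fit over the 12 libraries that the study used is given beside it. Levels are given as CPM, the reads of a gene scaled to the same total in each library, and as CPM per kb of exon where genes are compared with one another. The false discovery rate (FDR) is edgeR's quasi-likelihood p adjusted over all genes, with the study's threshold of 0.10.

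In MET calves BBOX1 and CPT1A, the last enzyme of carnitine synthesis and the entry enzyme of the shuttle, averaged 35.9% and 31.4% less CPM than in CON calves. Both were downregulated at the threshold when the 12 libraries were taken as separate calves, and neither passed it over the 10 samples. The fitted level was lower in MET for 8 of the 10 genes and higher for 2 (SLC22A5 and SLC25A20), with a median log2 fold change of -0.29. Among all genes tested the median was -0.0023, and 50.4% had a lower fitted level. Since bulk tissue was sequenced, fewer cells of a type and less RNA per cell cannot be told apart.

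Over the 10 samples edgeR called 0 of the 10 genes, and it called 0% of all genes at that threshold, where the lowest FDR of any gene was 0.155. At an unadjusted p up to 0.05, edgeR counted 2 of the 10 genes as lower (BBOX1 and CPT1A) beside 8.50% of all genes, and 0 as higher beside 7.86%. DESeq2 called these 2 genes lower over the 10 samples, beside 2.49% of all genes called lower, and 0 as higher beside 2.23%. Limma voom called 0 of the 10 genes, and it called 0 of all genes tested. Over the 12 libraries edgeR called the same 2 genes lower beside 2.32% of all genes, and 0 as higher beside 2.09%. All 5 MET samples were below all 5 CON samples for 1 of the 10 genes (BBOX1), beside 1.77% of all genes, and above them for 0, beside 1.94%.

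**Figure D1:**
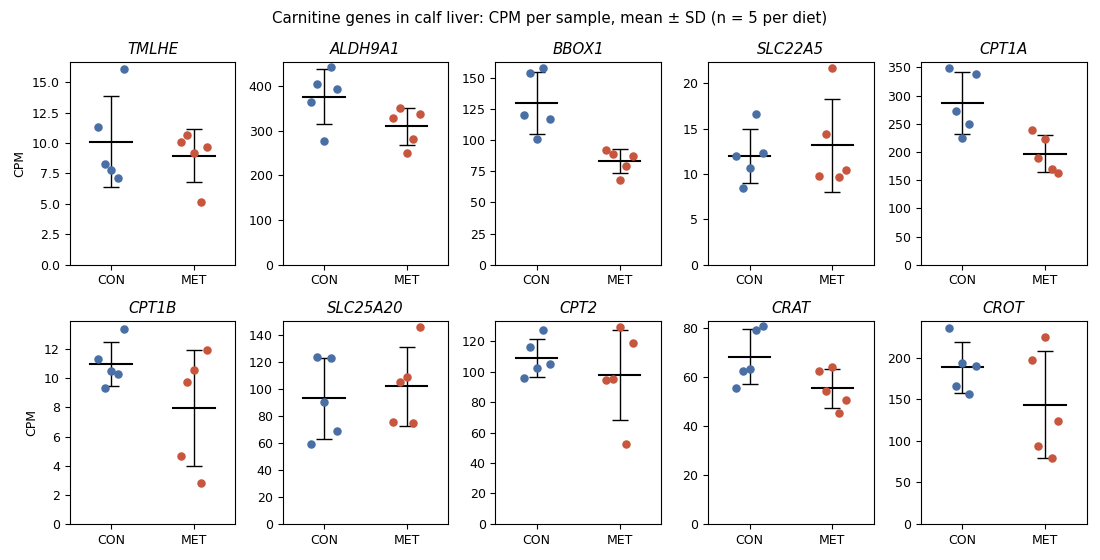
CPM (y axis from 0, a scale of its own in each panel) of the 10 carnitine genes in 5 CON samples (blue) and 5 MET samples (red), with the mean as a line and the SD as a bar. The diets are apart for BBOX1, where MET samples reached 92.0 CPM at most and CON samples were at 100.8 or above, and overlap for the other 9 genes.

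BBOX1 encodes gamma-butyrobetaine dioxygenase, which forms carnitine itself, and lies on chromosome 15 (UMD 3.1.1, 15:58532712-58609232, plus strand, 9 exons). Exon numbers here and below count the distinct exon intervals of the annotation, so that alternative boundaries of an exon count separately. The CPM of BBOX1 was 119.9 in CON 1 and 4, 154 in CON 2, 100.8 in CON 3, 158 in CON 5 and 117 in CON 6. In MET it was 92.0 in MET 1 and 3, 89.1 in MET 2, 68.4 in MET 4, 79.7 in MET 5 and 87.3 in MET 6. Every MET sample was below every CON sample, and the MET samples were closer together than the CON samples. The means were 130.0 ± 24.9 CPM in CON and 83.3 ± 9.51 in MET (SD, n = 5). The exact two-sided permutation test gave p = 0.00794, the smallest that the 252 arrangements of 5 against 5 samples allow. The log2 fold change was -0.64 (SE 0.15, 95% confidence interval -0.96 to -0.32) with an FDR of 0.173, and it had the 71st lowest p of all genes. Over the 12 libraries it was -0.60 with an FDR of 0.0528. When each library was left out in turn, BBOX1 lost this call without CON 1 or without CON 4, the 2 near-identical libraries, with an FDR of 0.104 at most.

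ALDH9A1 encodes the aldehyde dehydrogenase that makes gamma-butyrobetaine, the substrate of BBOX1 (3:3252171-3281223, plus strand, 13 exons). Its CPM was 365 in CON 1 and 4, 404 in CON 2, 277 in CON 3, 443 in CON 5 and 394 in CON 6. The MET values were 329 in MET 1 and 3, 349.8 in MET 2, 251 in MET 4, 282 in MET 5 and 338 in MET 6. CON 3 was below 4 of the MET samples, and the other 4 CON samples were above all of them. The means were 376.5 ± 62.5 CPM in CON and 309.7 ± 41.8 in MET (SD, n = 5), with p = 0.103 in the exact test. Its log2 fold change was -0.28 (95% confidence interval -0.62 to 0.05) with an FDR of 0.385, and -0.26 with an FDR of 0.269 over the 12 libraries.

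TMLHE encodes trimethyllysine dioxygenase, the mitochondrial enzyme of the first step (X:38362198-38383558, minus strand). The annotation gives it 5 exons of 999 bases in all, and only 46 to 155 reads per library fell on it. Its CPM was 11.3 in CON 1 and 4, 8.30 in CON 2, 7.78 in CON 3, 7.09 in CON 5 and 16.1 in CON 6. MET samples had 10.1 in MET 1 and 3, 10.6 in MET 2, 9.21 in MET 4, 5.15 in MET 5 and 9.69 in MET 6. The diets overlapped, with 4 of 5 MET samples above the CON median of 8.30. The fitted log2 fold change was -0.18 (95% confidence interval -0.73 to 0.37) with an FDR of 0.767, and without CON 6 its sign turned, to 0.05.

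SLC22A5, the sodium-dependent carnitine transporter of the plasma membrane (7:23329256-23355525, minus strand, 10 exons), was low in all samples. Its CPM was 11.95 in CON 1 and 4, 8.42 in CON 2, 10.6 in CON 3, 16.6 in CON 5 and 12.3 in CON 6. In MET it was 9.76 in MET 1 and 3, 14.5 in MET 2, 21.6 in MET 4, 9.62 in MET 5 and 10.4 in MET 6. The highest value was that of MET 4, and the other 4 MET samples lay inside the CON range. By edgeR the log2 fold change was 0.13 (95% confidence interval -0.41 to 0.67) with an FDR of 0.836. Without MET 4 it was -0.12, so that its sign rested on that sample.

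CPT1A encodes the liver isoform of carnitine palmitoyltransferase 1, the step of the shuttle that malonyl-CoA inhibits (29:46820298-46880905, minus strand, 21 exons). Its CPM was 349.6 in CON 1 and 4, 272 in CON 2, 225 in CON 3, 249 in CON 5 and 339 in CON 6. The MET values were 238 in MET 1 and 3, 189 in MET 2, 222 in MET 4, 171 in MET 5 and 163 in MET 6. Of the MET samples, 4 were below every CON sample, and MET 1 and 3 lay above CON 3. The means were 287 ± 55.1 CPM in CON and 197 ± 32.7 in MET (SD, n = 5), with p = 0.0159 in the exact permutation test. The log2 fold change was -0.55 (SE 0.16, 95% confidence interval -0.90 to -0.19) with an FDR of 0.183. Over the 12 libraries it was -0.55 with an FDR of 0.0846, a call that was kept in 4 of the 12 fits without 1 library. The FDR was above 0.10 without CON 1, CON 4, CON 6, MET 1, MET 2, MET 4, MET 5 or MET 6, and 0.159 at most.

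CPT1B is the isoform known from skeletal muscle, heart and brown fat (5:120098390-120106718, minus strand, 22 exons), and 25 to 129 reads per library fell on it. Its CPM was 11.4 in CON 1 and 4, 9.30 in CON 2, 10.5 in CON 3, 10.3 in CON 5 and 13.4 in CON 6. MET samples had 4.68 in MET 1 and 3, 9.76 in MET 2, 10.6 in MET 4, 2.80 in MET 5 and 11.96 in MET 6. The low samples were MET 1 and 3 and MET 5, both below the whole CON range, whereas the other 3 MET samples lay inside it. The MET samples had an SD of 3.99 CPM around their mean of 7.96, and the CON samples an SD of 1.53 around 10.98 (n = 5). Its log2 fold change was -0.48 (95% confidence interval -1.18 to 0.23) with an FDR of 0.485, and it was -0.27 without MET 5. Markers of muscle were low, with 3 of 11 measured markers at 0 in every sample (ACTA1, CKM and MYH2) and a summed level of 5.19 to 6.98 CPM in CON and 5.86 to 10.9 in MET. This sum was mostly TCAP and of the same order as CPT1B itself. Markers of fat cells summed to 2.92 to 6.14 CPM in CON and 2.42 to 5.46 in MET, with ADIPOQ and LEP at 0. The part of either cell type in the CPT1B values was not tested.

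Per kb of exon, CPT1A accounted for 91.8% ± 1.38 of the 3 CPT1 genes together (CPT1A, CPT1B and CPT1C) in CON and 90.2% ± 3.68 in MET (SD, n = 5). CPT1B accounted for 5.45% ± 0.743 in CON, where the samples ran from 4.67 to 6.47%. In MET its share ran from 2.36 to 9.59%, and 0 of the 5 samples fell inside the CON range, with some below and others above it.

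SLC25A20 encodes the carnitine-acylcarnitine translocase of the inner mitochondrial membrane (22:51617481-51652559, plus strand, 12 exons). Its CPM was 59.2 in CON 1 and 4, 124 in CON 2, 90.2 in CON 3, 123 in CON 5 and 69.1 in CON 6. In MET it was 75.5 in MET 1 and 3, 105 in MET 2, 109 in MET 4, 74.6 in MET 5 and 146 in MET 6. The spread within each diet was larger than the distance between the means of 93.0 ± 29.8 CPM in CON and 102 ± 29.3 in MET (SD, n = 5). The fitted log2 fold change was 0.13 (95% confidence interval -0.40 to 0.67) with an FDR of 0.823, and it was -0.03 without MET 6.

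CPT2, which completes the shuttle (3:93601358-93625434, minus strand, 7 exons), had a CPM of 95.99 in CON 1 and 4, 116 in CON 2, 102 in CON 3, 127.6 in CON 5 and 105 in CON 6. The MET values were 94.7 in MET 1 and 3, 95.4 in MET 2, 129 in MET 4, 52.5 in MET 5 and 119 in MET 6. MET 5 stood below all other samples, and the remaining MET samples spanned the CON range. By edgeR the log2 fold change was -0.16 (95% confidence interval -0.60 to 0.29) with an FDR of 0.739, and without MET 5 it was -0.0013. The ratio of CPT1A to CPT2 per kb was 1.95 ± 0.529 in CON and 1.58 ± 0.538 in MET (SD, n = 5), with 3 of 5 MET samples inside the CON range.

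**Figure D2:**
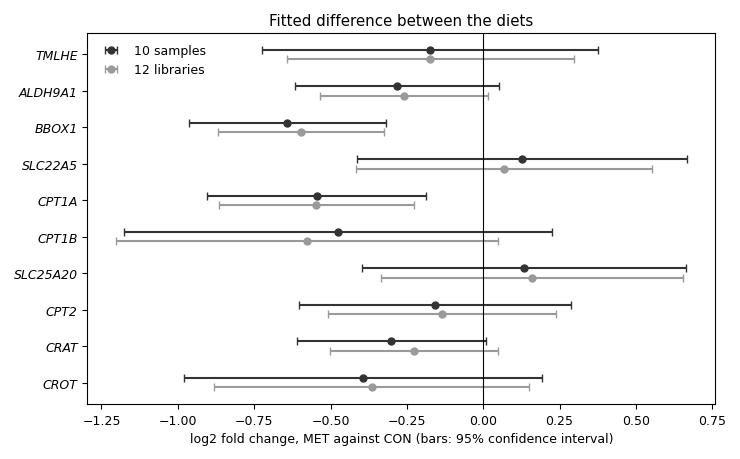
Log2 fold change of the 10 carnitine genes, MET against CON (x axis), from edgeR over 10 samples (black) and over 12 libraries (grey), with 95% confidence intervals before adjustment over genes. The intervals of BBOX1 (-0.96 to -0.32 over 10 samples) and CPT1A (-0.90 to -0.19) lie below 0 in both fits, and those of the other 8 genes include 0.

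CRAT encodes carnitine acetyltransferase, which exchanges acetyl groups between CoA and carnitine (11:99576791-99589668, minus strand, 16 exons). Its CPM was 55.7 in CON 1 and 4, 62.3 in CON 2, 63.4 in CON 3, 79.4 in CON 5 and 81.0 in CON 6. MET samples had 62.6 in MET 1 and 3, 54.4 in MET 2, 64.3 in MET 4, 45.2 in MET 5 and 50.8 in MET 6. CON 5 and CON 6 were above every MET sample, while 3 MET samples were below every CON sample. The log2 fold change was -0.30 (95% confidence interval -0.61 to 0.01) with an FDR of 0.317, the lowest after those of BBOX1 and CPT1A, and p = 0.0794 in the exact permutation test.

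CROT encodes the peroxisomal carnitine octanoyltransferase, through which medium-chain products of peroxisomal oxidation leave as carnitine esters (4:33196993-33262680, minus strand, 19 exons). Its CPM was 236 in CON 1 and 4, 166 in CON 2, 193 in CON 3, 156.6 in CON 5 and 190.0 in CON 6. In MET it was 197 in MET 1 and 3, 93.4 in MET 2, 225 in MET 4, 78.8 in MET 5 and 123 in MET 6. The MET samples divided, with 3 below all CON samples and the other 2 among the higher CON values. Its log2 fold change was -0.39 (95% confidence interval -0.98 to 0.19) with an FDR of 0.491. MET samples had an SD of 64.4 CPM around 143, against 30.7 around 188 in CON (n = 5).

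MET 5 was the lowest MET sample for 7 of the 10 genes and the lowest of all 10 samples for 5 of them. Over all genes its library stood farthest from the others, since the 9 pairs of libraries with the largest chi-square statistic per gene (84.9 to 132.9, the next pair being at 82.1) all held MET 5. Its summed hepatocyte markers (152500 CPM) were the highest among the MET samples, as were its lymphocyte markers (51.5 CPM), while its Kupffer cell (1553 CPM), cholangiocyte (23.7 CPM) and erythroid markers (57.1 CPM) were the lowest among them. Their part in its low values was not tested. Without MET 5 the log2 fold change was -0.63 for BBOX1, -0.50 for CPT1A, -0.24 for CROT and -0.24 for CRAT, with an FDR of 0.252, 0.272, 0.675 and 0.462. Leaving it out also ended the call of CPT1A over the 12 libraries. CROT moved the other way without MET 4, to -0.61 with an FDR of 0.302.

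Per kb of exon, ALDH9A1 had the highest level, with 144.5 ± 25.8 CPM per kb over the 10 samples, and it was above CROT in 10 of 10 samples. CROT (56.7 ± 18.2), SLC25A20 (53.6 ± 15.5), CPT1A (52.4 ± 13.8) and BBOX1 (51.0 ± 14.5) followed without a fixed order, since neighbours among them kept their rank in 5 to 7 of 10 samples. Their order by means also differed between the diets, SLC25A20 being the lowest of these 4 in CON (51.1 CPM per kb, the others 62.1 to 64.4) and the highest in MET (56.1, the others 39.8 to 49.0). CPT2 (30.8 ± 6.61) was below BBOX1 in 9 samples and above CRAT (22.7 ± 4.19) in 9. TMLHE was at 9.55 ± 2.94, below CRAT and above SLC22A5 (3.92 ± 1.25) in all 10 samples. SLC22A5 and CPT1B (3.14 ± 1.08) exchanged places, with SLC22A5 the higher in 5 of 10 samples. The first and last enzymes of synthesis thus differed in level per kb. BBOX1 was at 6.85 ± 2.90 times TMLHE in CON and 4.72 ± 1.53 times in MET (SD, n = 5), with all 5 MET samples inside the CON range. This ratio rests on the annotated exonic lengths, 999 bases for TMLHE and 2091 for BBOX1.

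**Figure D3:**
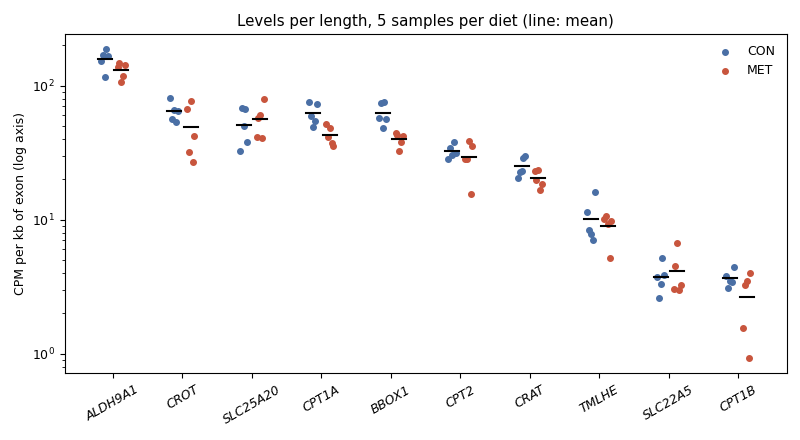
CPM per kb of exon (log axis) of the 10 carnitine genes, ordered by their mean over all samples, in 5 CON (blue) and 5 MET (red) samples with the mean of each diet as a line. ALDH9A1 stands at the top (144.5 CPM per kb over all samples), CROT, SLC25A20, CPT1A and BBOX1 share a level from 51.0 to 56.7, and SLC22A5 and CPT1B are lowest.

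To see which of the genes varied together, all 45 pairs were correlated over the 10 samples on log2 CPM, values that share library size and scaling. Pearson's r was positive in 40 pairs, with a median of 0.38, and 4 pairs had an unadjusted permutation p of at most 0.05. For ALDH9A1 and BBOX1, the enzymes of consecutive steps, r was 0.87 (permutation p = 0.00127, adjusted over the 45 pairs 0.0571), and Spearman's rho was 0.83 (permutation p = 0.00442, adjusted 0.197). Within the diets, after the mean of each diet was subtracted, r was 0.89, and without the 2 samples farthest from the ALDH9A1 median it was 0.72. MET 4 was the lowest MET sample and CON 3 the lowest CON sample for both genes. CON 3 was also the lowest CON sample for CPT1A and for the summed hepatocyte markers (141300 CPM). MET 4 (140600 CPM) was not the lowest MET sample in these markers, MET 2 being at 116100. The part of the markers in this relation was not tested.

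BBOX1 and CPT1A, the genes with the lowest FDR, did not vary together within the diets. Over all samples r was 0.60 (permutation p = 0.0647, adjusted 0.350) and rho 0.79 (permutation p = 0.00876, adjusted 0.197), whereas within the diets r was -0.09. CPT1A and CROT had r = 0.74 over all samples (permutation p = 0.0166, adjusted 0.287; rho 0.60, permutation p = 0.0738, adjusted 0.571), 0.64 within the diets and 0.71 without the 2 samples farthest from the CPT1A median. CPT1A and CRAT had r = 0.63 (permutation p = 0.0491, adjusted 0.350; rho 0.56, permutation p = 0.0972, adjusted 0.571), 0.34 within the diets (-0.08 in CON and 0.90 in MET, 5 samples each) and 0.83 without the 2 samples farthest from the CPT1A median. For CPT1B and CPT2, r was 0.82 (permutation p = 0.0191, adjusted 0.287; rho 0.54, permutation p = 0.115, adjusted 0.571), but it was -0.11 without the 2 samples farthest from the CPT1B median, so that this relation rested on those samples. The lowest r of all pairs was that of CPT1A and SLC25A20, -0.52 (permutation p = 0.122, adjusted 0.365), with a rho of -0.43 (permutation p = 0.217, adjusted 0.663). For this pair r was -0.60 within the diets (-0.74 in CON and -0.41 in MET, 5 samples each). It was 0.03 without the 2 samples farthest from the CPT1A median.

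**Figure D4:**
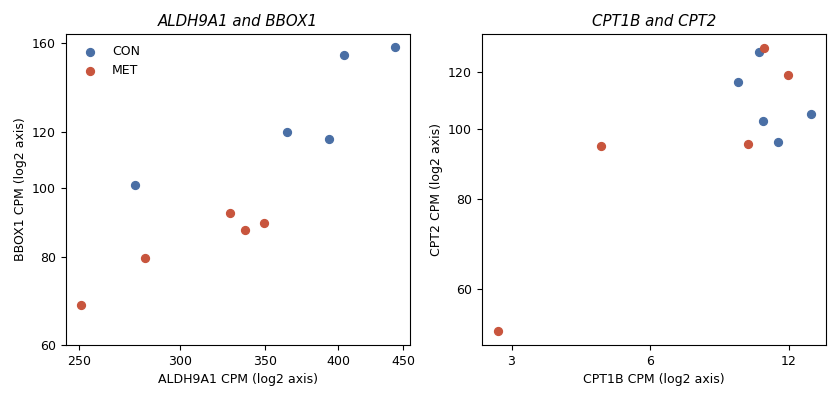
CPM on log2 axes of ALDH9A1 against BBOX1 (left) and of CPT1B against CPT2 (right), 1 point per sample, CON in blue and MET in red. On the left the samples line up within each diet (r = 0.89 within the diets), and on the right 2 MET samples with low CPT1B set the relation (r = 0.82 with them, -0.11 without).

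Genes that act around the carnitine shuttle were followed by lists. Over the 10 samples edgeR called 0 genes of any of these lists at an FDR of 0.10, and the counts at an unadjusted p up to 0.05 and over the 12 libraries are given for each list. DESeq2 over the 10 samples called PPARA, ACADM, EHHADH and SCP2 among them, all lower, beside 2.49% of all genes called lower. The counts of the lists stand beside the same shares as those of the 10 genes. Over the 12 libraries 2.32% of all genes were called lower and 2.09% higher. All 5 MET samples were below all 5 CON samples for 1.77%. At an unadjusted p up to 0.05, 8.50% of all genes were lower and 7.86% higher. Of the other carnitine genes, 6 of 7 were tested and 1 was lower at that p. This was SLC22A16, a carnitine carrier best known from testis, with 5.54 ± 3.25 CPM in CON and 2.24 ± 1.69 in MET (SD, n = 5) and an FDR of 0.259. SLC25A29, a mitochondrial carrier of basic amino acids that was first described as carnitine-related, had 17.6 ± 5.42 and 23.4 ± 4.12 CPM and an FDR of 0.349. None of the 6 passed over the 12 libraries, where the lowest of these FDR values was 0.178 for SLC22A16.

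Fatty acid uptake and activation precede the shuttle, and 0 of the 11 genes tested reached an unadjusted p of 0.05, with 7 lower and 4 higher by fold. ACSL1, a main long-chain acyl-CoA synthetase of liver, had 861 ± 49.3 CPM in CON and 639.5 ± 191 in MET (SD, n = 5) with an FDR of 0.311. SLC27A2, a fatty acid transporter with acyl-CoA synthetase activity, had 48.02 ± 32.5 and 22.8 ± 16.8 CPM with an FDR of 0.402. Both overlapped between the diets, and 0 of the 11 genes were called over the 12 libraries.

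Control of CPT1 by malonyl-CoA and by AMPK, the kinase that lowers malonyl-CoA, was followed with 9 tested genes of 10. At an unadjusted p up to 0.05 edgeR counted 0 of them, 4 being lower and 5 higher by fold. The median log2 fold change was 0.14, and 0 of the 9 were called over the 12 libraries. PRKAA1, a catalytic AMPK subunit, had 18.2 ± 1.75 CPM in CON and 15.5 ± 1.40 in MET (SD, n = 5) with an FDR of 0.316, and PRKAB1, a beta subunit, had 23.3 ± 2.21 and 26.6 ± 2.72 CPM with an FDR of 0.424.

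Among 11 transcription regulators of fatty acid oxidation, PPARA was the 1 gene lower at an unadjusted p up to 0.05 and the 1 called over the 12 libraries. PPARA, the nuclear receptor that induces CPT1A and other oxidation genes, had 17.9 ± 1.57 CPM in CON and 13.1 ± 2.00 in MET (SD, n = 5), with every MET sample below every CON sample. Its log2 fold change was -0.45 with an FDR of 0.178 over the 10 samples, and -0.42 with an FDR of 0.0849 over the 12 libraries, where it was downregulated.

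Mitochondrial beta-oxidation, the fate of the acyl groups that the shuttle delivers, had 8 of 16 genes lower and 8 higher by fold, with a median of -0.02. ACADM, the medium-chain acyl-CoA dehydrogenase, was the 1 gene of the 16 lower at an unadjusted p up to 0.05. It had 175 ± 49.1 CPM in CON and 100.7 ± 27.3 in MET (SD, n = 5), without overlap. Its FDR was 0.181 over the 10 samples and 0.0798 over the 12 libraries, with log2 fold changes of -0.79 and -0.75.

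Peroxisomal oxidation, which feeds CROT, had 8 of 10 tested genes lower by fold, with a median log2 fold change of -0.34, and 4 lower at an unadjusted p up to 0.05. Over the 12 libraries 1 of them was called. SCP2, which codes for the peroxisomal thiolase SCPx and a lipid carrier, had 608 ± 78.0 CPM in CON and 338 ± 61.4 in MET (SD, n = 5), without overlap, and a log2 fold change of -0.85 with an FDR of 0.155 over the 10 samples and 0.0381 over the 12 libraries.

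**Figure D5:**
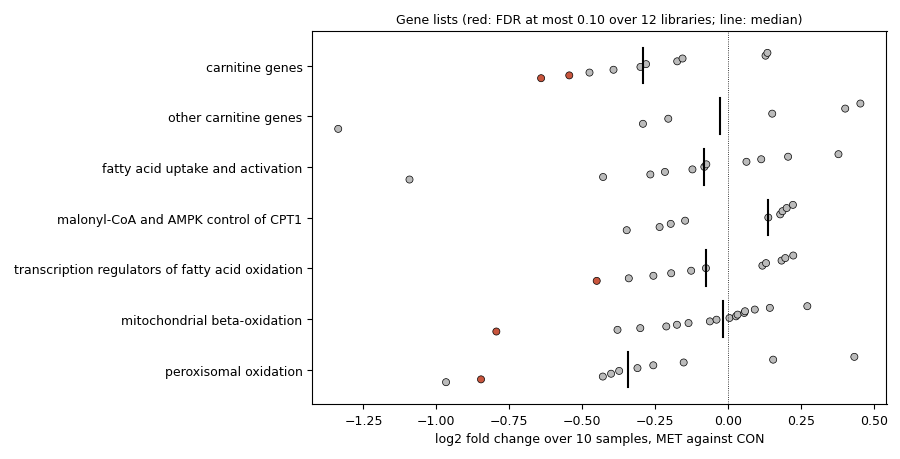
Log2 fold change over 10 samples, MET against CON (x axis), of each tested gene of 7 lists (1 point per gene, rows), with the median of the list as a line. Genes with an FDR of at most 0.10 over the 12 libraries are red, namely BBOX1, CPT1A, PPARA, ACADM and SCP2, all on the lower side, and the medians run from -0.34 (peroxisomal oxidation) to 0.14 (control of CPT1).

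Hepatocyte markers were high in every sample. Of the 8 marker lists compared between the diets by their sums, none had an exact permutation p under 0.148 after Benjamini-Hochberg adjustment over the lists, and edgeR called 0 markers of any list over the 10 samples. The 8 hepatocyte markers summed to 141300 to 193600 CPM in CON and to 116100 to 152500 in MET (exact permutation p = 0.0317), and 7 of the 8 were lower in MET by fold, with a median log2 fold change of -0.27, beside -0.29 for the carnitine genes. At an unadjusted p up to 0.05 edgeR counted 2 of the 8 as lower, ALB (log2 fold change -0.66) and APOB (-0.41). APOB was called lower over the 12 libraries with an FDR of 0.0859, beside 2.32% of all genes. DESeq2 over the 10 samples called ALB (FDR 0.0498) and APOB (FDR 0.0102) lower, beside 2.49%. The 8 Kupffer cell markers summed to 1318 to 1749 CPM in CON and 1553 to 2068 in MET (exact permutation p = 0.0556), and all 8 were higher in MET by fold, 3 of them at an unadjusted p up to 0.05. C1QB and C1QC were called higher over the 12 libraries, beside 2.09% of all genes. DESeq2 over the 10 samples called both higher, beside 2.23%, with an FDR of 0.0720 and 0.00227. The muscle marker sum, given above for CPT1B, had an unadjusted exact permutation p of 0.0476 and was mostly TCAP, the 1 muscle marker that passed the filter, with 4.95 ± 0.640 CPM in CON and 6.72 ± 1.92 in MET (SD, n = 5) and an FDR of 0.309. Sums were 714 to 1094 CPM in CON and 569.5 to 974.5 in MET for endothelial and stellate markers, 41.5 to 68.1 and 23.7 to 61.6 for cholangiocyte markers, 24.8 to 50.2 and 42.2 to 51.5 for lymphocyte markers, and 7.58 to 962 and 57.1 to 460.3 for erythroid markers. By fold, 7 of 8 endothelial and stellate markers (median log2 fold change -0.26) and 3 of 3 tested cholangiocyte markers (-0.38) were lower in MET as well, with 0 of either list called by edgeR over the 12 libraries and 0 at an unadjusted p up to 0.05. The part of cell composition in the values of BBOX1, CPT1A and the other genes was not tested.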

How the data were processed

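The authors aligned single-end reads with STAR 2.5.3a to UMD 3.1.1 and deposited raw counts per Entrez gene ID from featureCounts 1.5.2 (stranded, unique reads only), 1 file per library. Multi-mapped reads and reads on overlapping genes were left out, and no exon of the 10 genes shared bases with another gene. Symbols came from a RefSeq table of a later assembly, which named 95.8% of the genes tested. Counts were normalized by TMM, filtered (minimum count 10, minimum total count 15) and tested with edgeR 4.0.16 in R 4.3.3 with diet as the only term and Benjamini-Hochberg adjustment over all 13212 genes. Reads of a near-identical pair were summed for the tests, and its CPM averaged for means and SD. Exact permutation tests were two-sided, with a prior count of 2 for log2 CPM, and correlations used 100000 permutations. Alternatives were DESeq2 1.42.0, limma voom 3.58.1, other scalings, filters, a gene-length correction, a replicate block and leaving out samples. The edgeR, DESeq2 and limma voom fits were also run on counts simulated with 200 changed genes, and the outcome is not given here.

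All 10 genes and, in each list around them, those with an FDR of at most 0.10 in either fit, otherwise the 2 with the lowest p, are given with values. EHHADH and single marker genes are outside this rule and were chosen once their values had been seen. The genes and lists were chosen with earlier results of these data known. SLC22A4, ACACB and ABCD2 were below the filter. One gene of the peroxisomal list is not reported here and was left out of its counts. Counting error is largest for CPT1B, with 25 reads in 1 library. No sequence is printed, since none was used here.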

Additional observations from a re-analysis of the deposited data

Results flagged for a closer look

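TMLHE in MET 5 stood apart from the other samples of its diet, with 5.15 CPM against 9.21 to 10.6 CPM in the other 4 MET samples. It was the 1 group of 5 flagged among 20 examined (10 genes in 2 diets), a rate of 1 in 20 that chance alone gives. Whether its cause was biological or technical was not tested.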

How the results depend on the processing

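Over the 10 samples the count of called genes was 0 in the main analysis and became 2 with DESeq2 or with 12 separate libraries. It stayed 0 with voom, which called 0 of all genes tested. The count was also 0 with RLE or library-size scaling, either filter, the gene-length correction, 1 library kept of each pair and any sample left out. Over the 12 libraries the count of 2 ran from 0 to 2 when each library was left out in turn, an alternative added after seeing the data: it was 0 without CON 1 or CON 4 and 1 without CON 6, MET 1, MET 2, MET 4, MET 5 or MET 6. Same-numbered libraries did not deviate together (r from -0.19 to 0.15). This cannot show whether the numbers pair calves, since a weak shared effect need not raise r. With the replicate number as a block the count was 0, and the log2 fold changes of BBOX1 and CPT1A were -0.59 and -0.54. Leaving out each of the 10 samples in turn, log2 fold changes ran from -0.72 to -0.56 for BBOX1, -0.62 to -0.46 for CPT1A, -0.61 to -0.24 for CROT, -0.68 to -0.27 for CPT1B, -0.28 to -0.0013 for CPT2, -0.28 to 0.0497 for TMLHE, -0.12 to 0.27 for SLC22A5 and -0.0312 to 0.26 for SLC25A20, the last 3 changing sign (0.0497 without CON 6, -0.1205 without MET 4 and -0.0312 without MET 6). The other genes kept their sign in all 21 alternatives. The cause of these differences was not tested. Ordered by CPM without division by length, CPT1A took rank 2 in place of 4 and SLC25A20 rank 6 in place of 3. Fewest reads fell on CPT1B (1030 over all libraries), which had the largest standard error of the 10 genes (0.32).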
